A study of Mus musculus with 16 samples.

Results

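The genes described here encode the proteins of the cytosolic ribosome, the machine that translates nearly all cellular mRNAs. They were chosen by symbol, as genes named Rpl, Rps or Rplp followed by a number, with Rpsa added and with the S6 kinase genes and pseudogenes left out. Of 12393 genes that the array measured on a probe set naming that gene alone, 48 were members. They comprised 20 of 31 listed small subunit proteins, 20 of 43 listed large subunit proteins, 2 of 3 proteins of the stalk (the flexible arm that recruits elongation factors) and 6 of 8 paralogs, which are second genes closely related to a canonical one. A further 27 ribosomal protein symbols, among them Rpl3, Rpl5, Rpl10 and Rplp1, appeared only on probe sets that name several genes and were not analysed.

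The source was naive T cells (CD25- CD62L high CD44 low) of the CD4+ or CD8+ lineage, which the authors isolated by flow cytometry from spleens and lymph nodes. The mice were Gabpa f/f, termed WT, or CD4Cre Gabpa f/f, termed KO, so that both genotypes carried the floxed alleles. The CD4Cre transgene is active from the double-positive thymocyte stage onward, and the protein it removes is the DNA-binding subunit of GABP, an Ets family transcription factor. Cells were lysed directly after the sort (0 h) or cultured for 18 h with IL-2 and antibodies that engage CD3 and CD28. Lineage, genotype and time gave 8 groups of 2 arrays, 16 in all, and the ages of these mice were not given in the sources used here. The labels call the 2 arrays of a group biological replicates without naming mice, so p-values here reflect no more than the scatter among these arrays, which may be technical. Values are log2 signal after amplification of a fixed amount of RNA, and fewer transcripts of one gene cannot be told apart from more of the others.

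Ribosomal proteins are made in equal amounts for assembly with ribosomal RNA in the nucleolus, and a T cell that leaves quiescence builds many new ribosomes before it divides. Their mRNAs are abundant and long-lived. Most begin with a tract of C and T called a TOP start, through which the kinase mTOR controls their translation, so that their output can change without a change of mRNA. Many of their promoters hold an Ets site of the kind that GABP binds, which is the question that the comparison of KO with WT cells puts to these genes. The paralogs are expressed more selectively: Rps27l is a known p53 target, Rpl22l1 is known to be repressed by Rpl22, and Rpl7l1 takes part in ribosome assembly.

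Promoter windows from RefSeq (mouse build GRCm38.p6, from 250 bases before to 50 bases after each annotated start) were found for 42 of the 48 members. The letters CCGGAAG, the core of the GABP site, stood on either strand in 21 of the 42 (50%), in 16.3% of 9887 tested genes with an entry and in 9.93% of all 27025 genes with an entry. Of 24 such matches in members, 16 lay within 100 bases before or 50 bases after the start. The following 75-base windows, from 50 bases before to 25 bases after the start, are printed in the direction of transcription and show where the letters fell, in capitals, in members whose values are given below and in Rpl38 and Rps10 as members with little change. They lie at chr15:5116563-5116637 (plus strand, Rpl37), chr5:121204451-121204525 (plus, Rpl6), chr12:28635929-28636003 (minus, Rps7), chr9:66946036-66946110 (plus, Rps27l), chr11:114668530-114668604 (plus, Rpl38) and chr17:27635220-27635294 (minus, Rps10).
Rpl37: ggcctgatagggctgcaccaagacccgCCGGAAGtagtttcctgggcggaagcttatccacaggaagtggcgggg
Rpl6: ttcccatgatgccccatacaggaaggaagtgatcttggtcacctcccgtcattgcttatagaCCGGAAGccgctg
Rps7: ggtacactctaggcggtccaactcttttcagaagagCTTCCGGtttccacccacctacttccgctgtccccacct
Rps27l: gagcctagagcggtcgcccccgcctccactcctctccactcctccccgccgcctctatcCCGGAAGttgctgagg
Rpl38: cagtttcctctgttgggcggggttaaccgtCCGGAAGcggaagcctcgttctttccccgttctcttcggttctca
Rps10: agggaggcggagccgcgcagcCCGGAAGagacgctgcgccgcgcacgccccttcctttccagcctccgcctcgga
In these windows the letters stood on either side of the annotated start, and in Rps7 they appeared as CTTCCGG, the other strand of the same site. A match of letters is a description and does not show that the site is bound. The study mapped GABPα binding by ChIP-seq in CD4+ T cells of WT mice, and those binding sites were not compared with the windows here.

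A TOP start, defined as C at the annotated start followed by at least 4 C or T, was found in 8 of the 42 members (19%), against 3.03% of tested genes and 3.01% of all genes with an entry. The windows below run from 10 bases before to 25 bases after the start, with the tract in capitals. They are shown for Rps18, Rpl35, Rps6 (the substrate of the S6 kinases), Rplp2 (a stalk protein), Rpl14 and Rps27, at chr17:33955641-33955675 (minus strand), chr2:39005107-39005141 (minus), chr4:86857343-86857377 (minus), chr7:141447641-141447675 (plus), chr9:120571507-120571541 (plus) and chr3:90213624-90213658 (minus).
Rps18: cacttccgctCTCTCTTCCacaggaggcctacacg
Rpl35: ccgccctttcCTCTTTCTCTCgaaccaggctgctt
Rps6: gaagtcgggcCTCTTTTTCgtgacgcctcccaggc
Rplp2: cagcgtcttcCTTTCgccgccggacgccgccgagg
Rpl14: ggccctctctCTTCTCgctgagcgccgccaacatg
Rps27: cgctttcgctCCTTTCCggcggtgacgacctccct
The annotated start is 1 position per entry, so a tract that begins a few bases away was not counted.

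Cd4, Zbtb7b, Cd8a and Cd8b1 separated the labelled lineages without overlap, whereas the lineage markers Runx3 and Cd40lg overlapped. Cd8a was at 10.89 to 12.01 in the CD8 groups and at 4.42 to 7.56 in the CD4 groups. In CD4 WT cells Cd8a read 7.56 at 0 h and 6.85 at 18 h in replicate 1, against 5.13 and 5.105 in replicate 2. Cd8b1 read 8.52 and 7.45 against 7.52 and 5.89 there. In CD4 KO cells Cd8a read 5.57 and 4.49 in replicate 1, against 4.42 and 4.73 in replicate 2. Whether CD8 cells were present in the CD4 arrays was not tested. Il2ra, which activated T cells induce, lay between 2.64 and 4.51 at 0 h and between 7.49 and 8.94 at 18 h. Gabpa itself was not lower in the arrays labelled KO. Its brighter probe set read 8.74 to 9.34 in WT and 9.09 to 9.79 in KO arrays, and its second probe set read 6.29 to 7.69 in WT and 7.62 to 9.20 in KO arrays. Where these probes lie relative to the deleted part was not given in the sources used here, so they do not check the labels, and WT and KO below mean arrays labelled so. The labelled genotypes did differ in other genes: Mrpl16 and Mrps35, of the mitochondrial ribosome, were lower in KO than in WT arrays without overlap in each of the 4 pairs of groups, as given with the mitochondrial list. The difference between 3′ and 5′ control probe sets, a sign of RNA degradation or incomplete amplification, was 3.76 in CD8 KO 18 h replicate 2, 1.58 in CD4 WT 0 h replicate 1, 1.11 in CD8 KO 0 h replicate 2 and 0.46 to 0.85 in the other arrays. Of 10 B cell markers, 7 lay below the array median on every array. The summed level of the 10 was 3161 to 3769 over the 0 h arrays, 1503 to 1703 in CD4 WT 18 h, 556 to 760 in CD4 KO 18 h and 1420 to 2023 in CD8 18 h arrays. Ighm, at 11.51 to 11.78 in the 0 h arrays, was the brightest of the 10 on every array and made up most of the sum. Of 7 NK cell markers, 2 were called lower at 18 h in CD4 WT, CD4 KO and CD8 WT cells and 0 in CD8 KO cells. The part of such cells in the responses below was not tested.

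Most members were among the brightest genes on every array. Their median level lay between 13.21 and 13.49 across arrays, where the highest value of any probe set lay between 14.16 and 14.45. Altogether 44 members exceeded the array median on all 16 arrays, and Rpl39 and Rpl3l, a paralog known from muscle, lay below it on all 16. Replicates were close: the median absolute difference between the 2 arrays of a group was 0.056 to 0.155 for members and 0.162 to 0.348 for all genes. Array signal can saturate near its ceiling, which would compress differences of the brightest members, and to what extent it did so here was not tested.

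**Figure D1:**
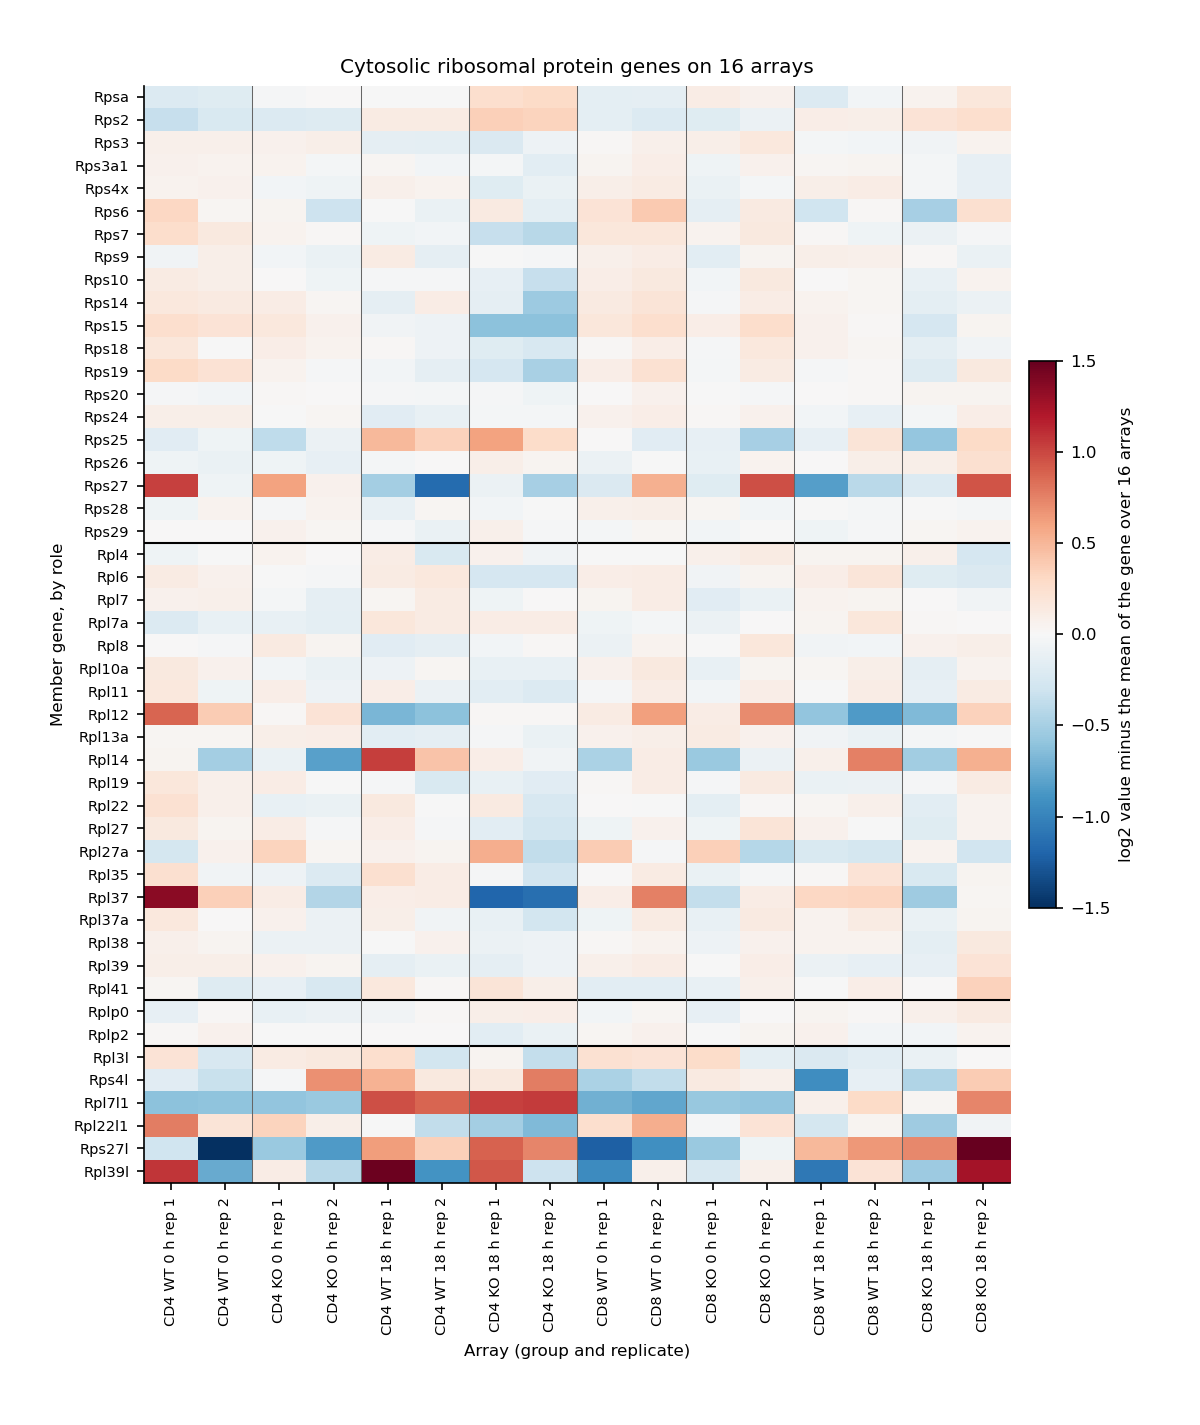
Log2 signal of the 48 members (rows) on the 16 arrays (columns), each gene relative to its own mean over all arrays, with the colour limited to 1.5 log2 units on either side. Most members stay near their mean on every array, while Rps27l and Rpl7l1 are high in the 18 h arrays and Rpl37 is low in CD4 KO 18 h.

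The first question was how the members responded to 18 h of stimulation. A gene was called when the adjusted p from limma (Benjamini-Hochberg over 12393 genes) was under 0.05 and the fold exceeded 1.5. The p tests for any difference, whereas limma's treat, which tests against the 1.5-fold itself and is closer to the methods of the study, made fewer calls, as given with the results. In CD4 WT cells 2 members were called higher, against 12.2% of all genes, and 2 were called lower, against 14%. In CD4 KO cells the counts were 2 higher (background 11.1%) and 3 lower (13.2%), in CD8 WT cells 2 higher (8.2%) and 1 lower (7%), and in CD8 KO cells 2 higher (3.67%) and 0 lower (3.87%), where no member passed an unadjusted p of 0.05 downward either. The median change of the members was -0.04, -0.07, -0.03 and -0.01 in that order, beside -0.08, 0.03, -0.06 and 0.02 for all genes. For 33, 29, 35 and 35 of the 48 members the 95% interval of the change lay within 1.5-fold of no change, beside 28.4%, 31.7%, 33.9% and 37% of all genes.

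The paralogs Rps27l and Rpl7l1 were called higher in each of the 4 responses. In CD4 WT cells Rpl7l1, an assembly factor of the large subunit, read 8.44 and 8.45 at 0 h and 10.03 and 9.92 at 18 h. In CD4 KO cells it read 8.46 and 8.49 at 0 h and 10.07 and 10.10 at 18 h. The replicates of Rpl7l1 lay almost together and the times were far apart. In CD8 WT cells it read 8.34 and 8.28 before and 9.13 and 9.34 after stimulation, and in CD8 KO cells 8.48 and 8.46 before and 9.08 and 9.78 after. The log2 change of Rpl7l1 was 1.53 ± 0.19 (SE, n = 2 arrays per group, limma adjusted p = 6.99e-05) in CD4 WT, 1.61 ± 0.19 in CD4 KO, 0.93 ± 0.19 in CD8 WT and 0.96 ± 0.19 (limma adjusted p = 0.0081) in CD8 KO cells. Its second probe set was called higher in all 4 as well. Under treat Rpl7l1 was called in CD4 WT (limma adjusted p = 0.0030) and CD4 KO cells (limma adjusted p = 0.0018), and no other member was called in any of the 4 responses.

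Rps27l, the paralog of the small subunit protein Rps27, read 10.81 and 9.60 in CD4 WT cells at 0 h and 11.73 and 11.46 at 18 h. In CD4 KO cells it read 10.54 and 10.25 before and 11.99 and 11.83 after stimulation. Its 0 h replicates in CD4 WT cells were further apart than those of Rpl7l1, and the times still did not overlap. In CD8 WT cells Rps27l read 9.88 and 10.18 at 0 h and 11.59 and 11.75 at 18 h, and in CD8 KO cells 10.54 and 11.03 at 0 h and 11.82 and 12.60 at 18 h. The changes were 1.39 ± 0.35, 1.51 ± 0.35, 1.64 ± 0.35 and 1.42 ± 0.35 (SE), with limma adjusted p of 0.0083, 0.0053, 0.0062 and 0.0242. Of its 3 probe sets, all 3 rose in CD4 WT, CD4 KO and CD8 WT cells, and in CD8 KO cells 1 of them missed the threshold (limma adjusted p = 0.0559). Its canonical partner Rps27, on a dim probe set, changed by -1.31, -0.63, -0.77 and -0.03 and was not called in any of the 4.

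The third paralog that moved was Rpl22l1, which fell in CD4 cells. It read 12.98 and 12.40 at 0 h and 12.20 and 11.85 at 18 h in CD4 WT, and 12.54 and 12.30 at 0 h and 11.71 and 11.55 at 18 h in CD4 KO. The fall was -0.67 ± 0.23 (SE, limma adjusted p = 0.049) in CD4 WT and -0.79 ± 0.23 (limma adjusted p = 0.023) in CD4 KO. In CD8 cells the values were -0.51 in WT and -0.39 in KO, which were not called. Rpl22, the canonical partner that restrains it, changed by -0.08, 0.05, 0.06 and 0.01. The other paralogs were dim: Rpl39l changed by 0.13, 0.45, 0.00 and 0.43, Rps4l by 0.59, 0.12, -0.11 and -0.14, and Rpl3l by 0.00, -0.29, -0.41 and -0.11, and none of these was called.

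Among canonical large subunit proteins, Rpl12 and Rpl37 were called lower. Rpl12, which sits at the base of the stalk, read 10.06 and 9.57 at 0 h and 8.51 and 8.58 at 18 h in CD4 WT cells. In CD8 WT cells it read 9.31 and 9.80 at 0 h and 8.60 and 8.34 at 18 h. It fell by 1.28 ± 0.30 (SE, limma adjusted p = 0.0064) and by 1.09 ± 0.30 (limma adjusted p = 0.0276). In KO cells the change of Rpl12 was -0.10 in CD4 and -0.56 in CD8 cells, neither called, and its difference of response between genotypes, 1.18 ± 0.43 in CD4 cells, did not pass the test (limma adjusted p = 0.288). Rpl37 was called lower in CD4 KO cells (-0.998 ± 0.33, limma adjusted p = 0.0391). Its change was -0.75, -0.11 and -0.13 in CD4 WT, CD8 WT and CD8 KO cells. Rpl14, on 1 dim probe set (median level 7.38), had the largest increase of a canonical member in CD4 WT cells (0.96 ± 0.39, not called). Its change was 0.48, 0.60 and 0.33 in the other groups.

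Among small subunit proteins, Rps15 was called lower in CD4 KO cells. Its arrays read 13.28 and 13.19 at 0 h and 12.51 and 12.50 at 18 h, a fall of 0.73 ± 0.14 (SE, limma adjusted p = 0.0016), and its second probe set fell by 0.87. In CD4 WT cells Rps15 changed by -0.29, in CD8 WT by -0.17 and in CD8 KO by -0.28. Rps15 was the only called member among the 34 canonical members whose median level exceeded 11, a limit chosen after the values were seen. Rps2 rose in CD4 cells by 0.42 and 0.54 (limma adjusted p = 0.0216 and 0.0051), under the fold minimum, and Rps25 changed by 0.53 and 0.68 there without passing the test. Rps6, Rps14 and Rps19 changed by -0.43 to 0.13, and none was called.

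The stalk proteins were not called in any response. Rplp0 changed by 0.03, 0.20, 0.04 and 0.16, and Rplp2 by -0.04, -0.13, -0.04 and -0.01. Rpl11, known to restrain Mdm2 when assembly fails, changed by -0.04, -0.20, 0.00 and -0.03.

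**Figure D2:**
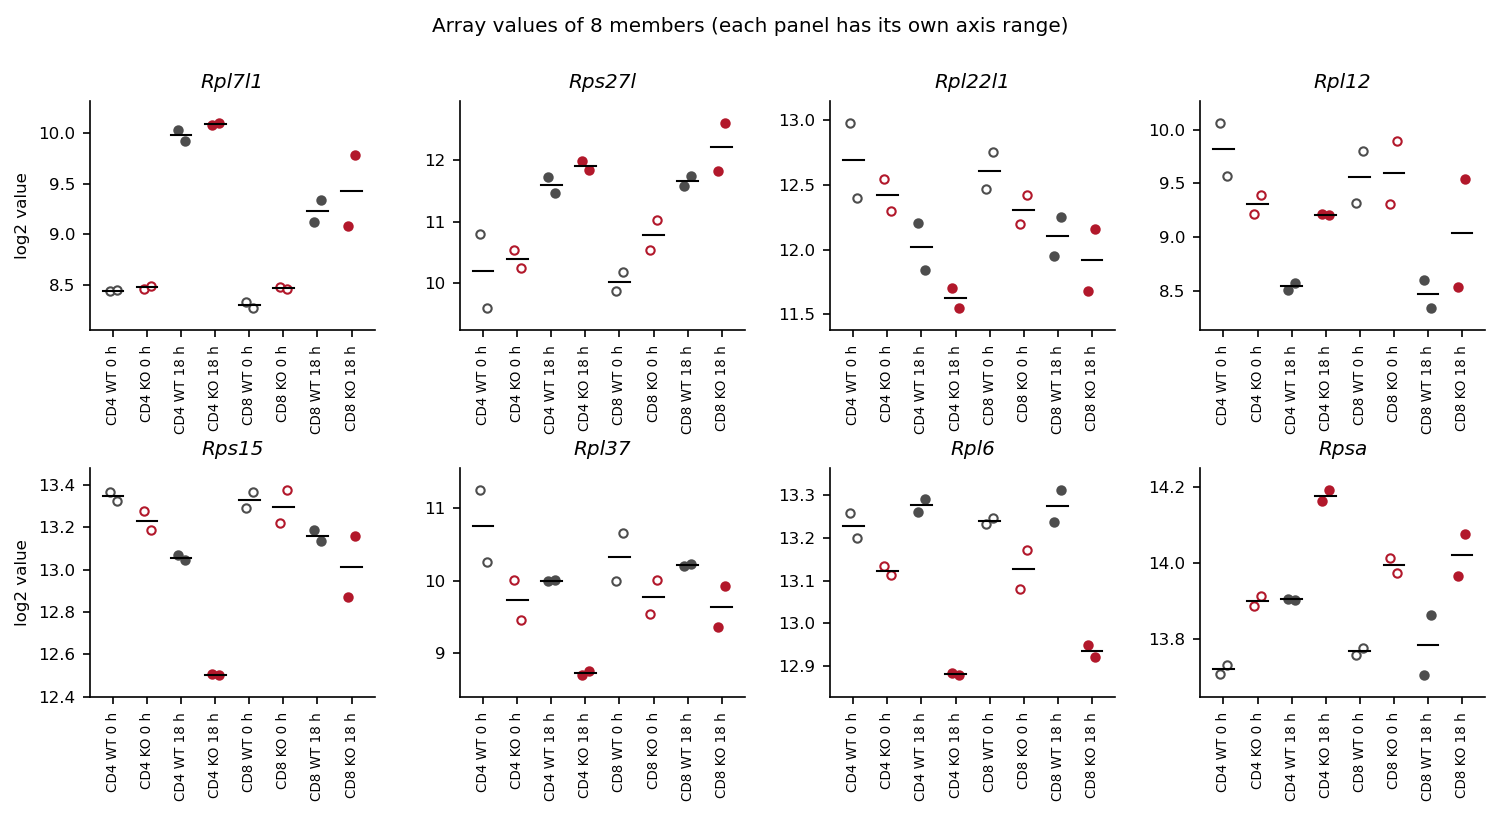
Log2 signal of 8 members on each of the 16 arrays, with open points for 0 h, filled points for 18 h, grey for WT, red for KO and a line at each group mean. Rpl7l1 and Rps27l are higher in each group of 18 h arrays, Rpl22l1 lower, Rpl37 lowest in CD4 KO 18 h (8.70 and 8.76), and Rpsa higher in KO than in WT within each lineage and time.

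The arrays numbered 1 and those numbered 2 deviated together within a lineage, so the fit was repeated with that number as a block. Under it Rps27 was called lower in CD4 WT (limma adjusted p = 0.00043), CD4 KO (limma adjusted p = 0.0374) and CD8 WT cells (limma adjusted p = 0.0185), Rpl14 was called higher in CD4 WT (limma adjusted p = 0.0012) and CD8 WT cells (limma adjusted p = 0.0301), and Rpl37 was called lower in CD4 WT cells (limma adjusted p = 0.033). The calls lower then numbered 4, 4, 2 and 0, and the calls higher 3, 2, 3 and 2, while the calls over all 12393 genes rose too, from 3249, 3004, 1884 and 934 to 3629, 3366, 2365 and 1535. Without CD4 WT 0 h replicate 1 the Rpl12 call in CD4 WT cells was lost (limma adjusted p = 0.0664), and without CD4 WT 0 h replicate 2 or CD4 WT 18 h replicate 1 the Rps27l call was lost there. The Rpl22l1 call in CD4 WT cells was lost without any of 13 of the 16 arrays. In CD4 KO cells the Rps27l call was lost without CD4 KO 0 h replicate 2 (limma adjusted p = 0.0508), the Rpl22l1 call without any of its own 4 arrays and the Rpl37 call without any of 7 arrays. In CD8 WT cells the Rpl12 call was lost without any of its own 4 arrays, the Rps27l call without 0 h replicate 1 or 18 h replicate 2, and the Rpl7l1 call without 18 h replicate 2. In CD8 KO cells the Rpl7l1 and Rps27l calls were lost without either 0 h array, and the Rps27l call also without 18 h replicate 2. The calls over all genes in CD8 KO cells moved as well, from 934 to 382 and 518 without 0 h replicate 1 and 2, and to 2223 and 613 without 18 h replicate 1 and 2. The Rpl7l1 calls in CD4 WT and CD4 KO cells and the Rps15 call in CD4 KO cells held without each of the 16 arrays in turn.

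Without the 3 arrays of largest 3′ to 5′ difference, Rps27l was still called higher in each of the 4 responses, and by 1.28 in CD8 KO cells (limma adjusted p = 0.0223), where a single array was left at each time and was taken to vary like the other groups. Rpl7l1 kept its call in the other 3 responses and lost it in CD8 KO cells (0.60, limma adjusted p = 0.143). Rpl22l1 lost its call in CD4 WT cells (-0.38, limma adjusted p = 0.262), Rpl14 was called higher there (limma adjusted p = 0.0355), and Rps25 was called higher in CD4 KO cells (limma adjusted p = 0.0149).

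Averaged over lineages and genotypes, a contrast added after the values were seen, 3 members were called higher (background 11.1%) and 3 lower (background 11.6%). Rps27l rose by 1.49, Rpl7l1 by 1.26 and Rpl14 by 0.59, whereas Rpl12 fell by 0.76, Rps27 by 0.69 and Rpl22l1 by 0.59. Rpl14, Rpl22l1 and Rps27 each lost the call without any of 8 of the 16 arrays. The 2 times did not overlap in any of the 4 responses for Rpl7l1, Rps2, Rps26 and Rps27l, which were higher at 18 h (background 8.84%), and for Rpl13a, Rpl22l1, Rps14, Rps15, Rps3 and Rps7, which were lower (background 9.57%). The 8 members with a TOP start at the annotated base changed by a median of -0.07, -0.07, -0.02 and -0.03 in CD4 WT, CD4 KO, CD8 WT and CD8 KO cells. The 34 without one there changed by -0.04, -0.09, -0.01 and -0.01. Tracts that begin a few bases away were not counted, so the 34 may include TOP transcripts. This split therefore cannot compare transcripts with and without a TOP start.

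Of the factors that assemble ribosomes, larger shares were called higher than of the members. Of 33 small subunit assembly factors 27 were called higher in CD4 WT cells, 25 in CD4 KO, 18 in CD8 WT and 3 in CD8 KO cells, with medians of 1.23, 1.25, 0.70 and 0.33. Of 42 large subunit assembly factors 31, 28, 21 and 5 were called higher and 1, 0, 1 and 0 lower, with medians of 1.36, 1.08, 0.73 and 0.17. The factor called lower was Nop53 in both, at -1.05 in CD4 WT and -0.67 in CD8 WT cells. Nop16, a nucleolar protein of large subunit assembly, rose by 2.54 and Utp6, of the small subunit processome, by 2.19 in CD4 WT cells. Of 7 proteins of small nucleolar RNPs, which modify ribosomal RNA, 5, 5, 5 and 2 were called higher, with Nolc1 up by 2.65 in CD4 WT cells. RNA polymerase I and its factors, which make ribosomal RNA, had 5, 5, 1 and 0 of 11 called higher. The 74 mitochondrial ribosomal proteins had 37, 23, 27 and 2 called higher and 0, 4, 0 and 1 lower, with a median of 0.72 in CD4 WT cells against -0.04 for the cytosolic members.

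The counts in CD8 KO cells rest on 2 groups that hold the arrays with 3′ to 5′ differences of 3.76 and 1.11. With the replicate block they were 6, 7, 4, 2 and 13 for small subunit factors, large subunit factors, small nucleolar RNP proteins, RNA polymerase I factors and mitochondrial ribosomal proteins. Without CD8 KO 18 h replicate 2 the small and large subunit factors had 2 each. Tested as a difference of responses in KO cells, 9 small subunit and 11 large subunit factors rose less in CD8 than in CD4 cells. In WT cells 1 small subunit factor did. No member passed this test in WT cells (background 0.226% higher and 0.145% lower) or in KO cells (2.78% and 1.45%), and limma's unadjusted p was under 0.05 for 1 and 2 members. These contrasts were added after the values were seen. The part of the array differences in this was not tested.

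**Figure D3:**
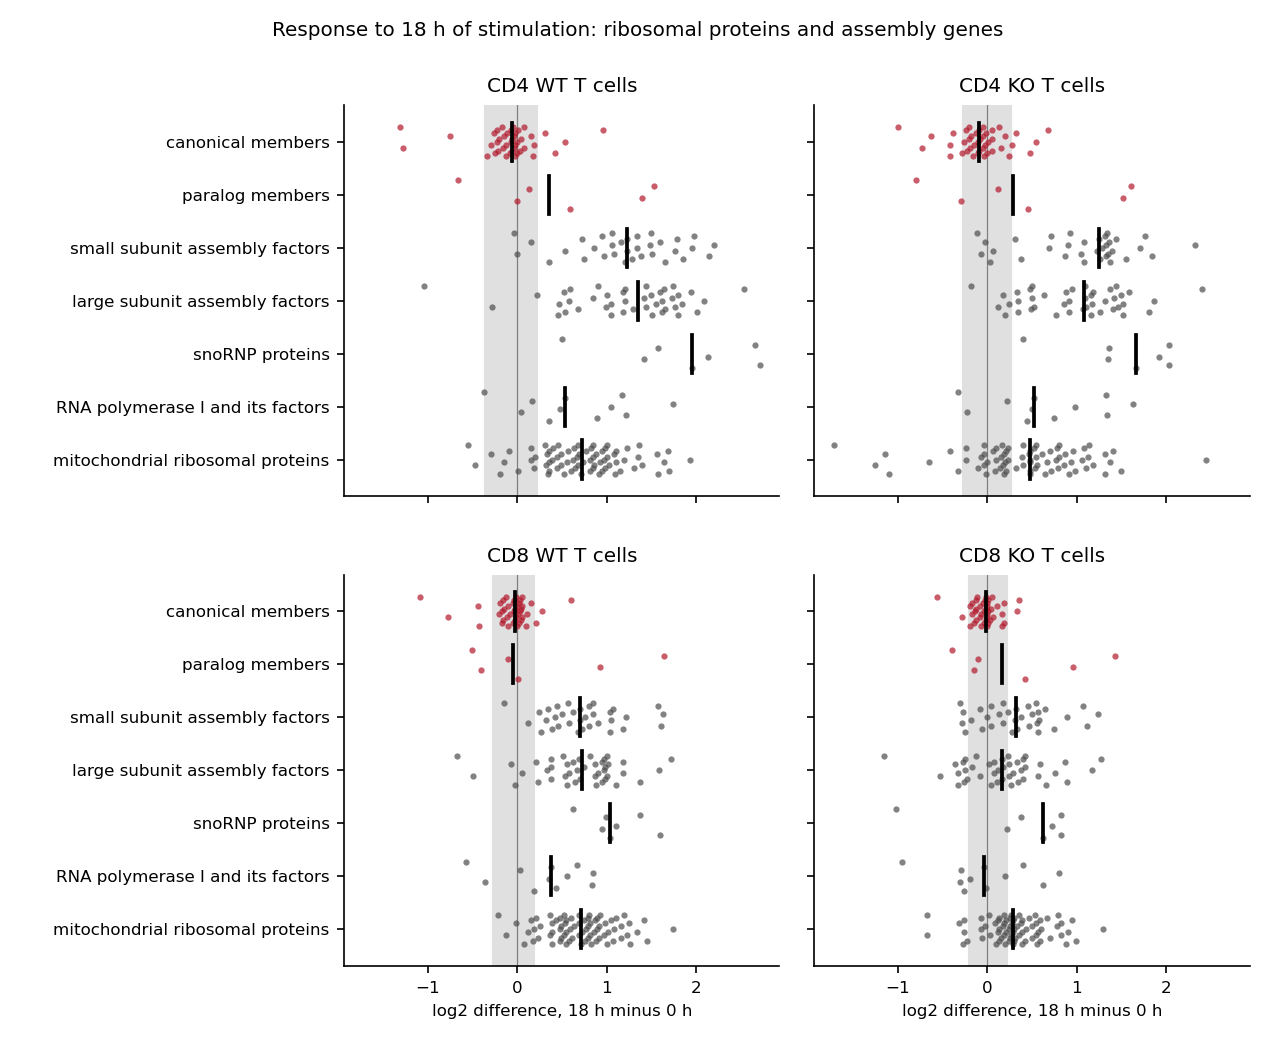
Log2 change from 0 h to 18 h of single genes in each lineage and genotype (4 panels), with red points for the members, grey points for the other lists, a black bar at each list's median and a grey band for the middle 50% of all genes. Canonical members cluster at 0 in each panel, while most small and large subunit assembly factors lie above 0 in CD4 WT cells (medians of 1.23 and 1.36) and lie closer to it in CD8 KO cells (0.33 and 0.17), where a number of them are below 0.

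Other genes tied to the members gave mixed values. Of 14 further TOP transcripts, among them elongation and initiation factors, 1, 2, 1 and 1 were called higher and 0 lower, with Nap1l1 up by 1.42 in CD4 WT cells. Of 12 genes of the mTOR and 4E-BP pathway 3, 4, 3 and 1 were called higher and 2 lower in each, and Eif4ebp1, which blocks cap-dependent translation until mTOR phosphorylates it, rose by 2.83 in CD4 WT cells. Of 4 genes of the Mdm2 and p53 list, Cdkn1a rose by 2.07 and Mdm4 fell by 1.604 in CD4 WT cells. Fau, which encodes a small subunit protein outside the naming rule, fell by 0.69 in CD4 KO cells.

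The second question was whether loss of GABP changed the members. In CD4 cells at 0 h 0 members were called higher (background 0.533%) and 0 lower (0.742%), and at 18 h 0 higher (2.72%) and 1 lower (4.14%). In CD8 cells 0 were called higher (1.13%) and 0 lower (0.5%) at 0 h, and 0 higher (1.59%) and 0 lower (1.16%) at 18 h. At an unadjusted p under 0.05, limma gave 0 higher and 1 lower, 2 and 4, 1 and 0, and 0 and 1 members in CD4 0 h, CD4 18 h, CD8 0 h and CD8 18 h. Unchanged genes pass this threshold at a rate of 0.05, so these counts, and those at this threshold elsewhere, are no result by themselves. The median difference of KO minus WT was -0.07, -0.02, -0.04 and -0.01, beside -0.06, 0.02, 0.02 and 0.07 for all genes. The 95% interval lay within 1.5-fold for 34, 32, 36 and 35 of 48 members, beside 40.5%, 39.4%, 41.4% and 39% of all genes. The calls over all genes, 158, 850, 202 and 341, depended on single arrays: with 1 array left out at a time they ranged from 23 to 232, 306 to 1062, 38 to 318 and 61 to 1769. The lowest counts came without CD4 KO 0 h replicate 1, CD4 KO 18 h replicate 2, CD8 WT 0 h replicate 2 and CD8 WT 18 h replicate 2 in that order, and the highest without either CD8 KO 18 h array in the first 3 and without CD8 KO 18 h replicate 1 in CD8 18 h.

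The member called was Rpl37, a large subunit protein that binds zinc, whose promoter window holds the GABP letters. It was measured on 1 probe set only, so no second probe set could check its differences. That probe set ends in _x_at and is not of the plain _at type, and whether it also detects other transcripts was not tested. With a median level under 11, Rpl37 was dimmer than the 34 canonical members above that limit. In CD4 cells at 18 h it read 9.995 and 10.004 in WT and 8.70 and 8.76 in KO arrays, a difference of -1.27 ± 0.33 (SE, limma adjusted p = 0.0343). At 0 h it read 11.24 and 10.25 in WT and 10.01 and 9.45 in KO arrays (-1.02 ± 0.33, limma adjusted p = 0.218). The KO arrays lay below the WT arrays at both times. In CD8 cells Rpl37 read 9.99 and 10.65 in WT and 9.54 and 10.01 in KO arrays at 0 h, and 10.20 and 10.22 in WT and 9.36 and 9.92 in KO arrays at 18 h. These differences, -0.55 at 0 h with overlapping arrays and -0.57 at 18 h, were not called. The CD4 18 h call was lost without any 1 of its own 4 arrays (limma adjusted p up to 0.165), under treat (limma adjusted p = 0.803) and with each array centred on its median (limma adjusted p = 0.0688). The replicate block within each lineage kept the call. A single block over both lineages lost it, with an adjusted p just over the threshold. The replicate differences ran opposite ways in the lineages, so that single block does not match the arrays. The summed level of B cell markers was also lower in CD4 KO 18 h arrays, and most of that sum was Ighm. In CD4 18 h arrays Ighm read 10.64 and 10.44 in WT and 9.33 and 8.84 in KO. The other markers of that list lay below the array median there, so their directions are not read here. Cd79b read 3.78 and 3.95 in WT and 3.52 and 3.45 in KO, and Ms4a1 4.87 and 3.66 against 4.95 and 4.04. The summed level of 10 memory and effector T cell markers was also lower in KO than in WT arrays of CD4 cells. That level was 1355 to 1646 in WT and 932 to 1123 in KO arrays at CD4 18 h, and 707 to 1118 against 395 to 627 at CD4 0 h. In CD8 cells at 18 h it was 1473 to 1534 in WT and 1849 to 2084 in KO arrays. Single markers of the 10 went both ways at CD4 18 h. Cd44 read 8.93 and 9.36 in WT and 8.56 and 8.61 in KO arrays. Cxcr3, close to the array median, read 4.89 and 5.22 in WT and 5.88 and 5.47 in KO arrays. Sums led by a few bright genes do not count cells, and the part of such cells was not tested.

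The other large differences did not pass the test. In CD4 cells at 0 h they were Rpl12 (-0.51) and Rps6 (-0.31) downward and Rps4l (0.58), Rpl27a (0.28) and Rps27l (0.19) upward. At 18 h in CD4 cells they were Rpl14 (-0.70), and upward Rpl12 (0.67), Rps27 (0.54) and Rps27l (0.31). Rps15 was lower there by 0.55 ± 0.14 with an adjusted p of 0.0296 from limma, under the fold minimum. In CD8 cells at 0 h the values were Rpl22l1 (-0.30) and Rps6 (-0.29) downward and Rps27l (0.76), Rps4l (0.53) and Rpl39l (0.35) upward. At 18 h they were Rpl14 (-0.41) and Rpl6 (-0.34) downward and Rps27 (0.98), Rpl39l (0.78) and Rpl12 (0.57) upward. Rpl12 thus had opposite signs in CD4 cells at the 2 times, as the response difference above describes. With the replicate block, Rpl14 was called lower in CD4 18 h (limma adjusted p = 0.0243) and Rps27 higher in CD8 18 h (limma adjusted p = 0.0192). Without the 3 arrays of largest 3′ to 5′ difference, Rpl37 kept its call in CD4 18 h (limma adjusted p = 0.0064) and Rpl12 was called higher there (limma adjusted p = 0.0429).

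The mean of the 4 differences, a contrast added after the values were seen, narrowed the intervals, so that 42 of 48 (87.5%) lay within 1.5-fold, beside 83% of all genes. In it 0 members were called higher (background 2.29%) and 1 lower (background 1.98%). Rpl37 was lower by a mean of -0.85 ± 0.16 (SE, 8 arrays per genotype, limma adjusted p = 0.0047), and the call held without each of the 16 arrays in turn but not under treat, which tests against the 1.5-fold. Each sort was divided between the times, so the 8 arrays of a genotype are not 8 independent samples, as this SE and p take them to be. Rpl6, a large subunit protein with the GABP letters in its window, was lower by -0.24 ± 0.06 (limma adjusted p = 0.0238). Rpsa, the laminin receptor homolog of the small subunit, also holds the letters and was higher by 0.23 ± 0.06 (limma adjusted p = 0.0333). Both were under the fold minimum. Rpl6 ranged from 13.20 to 13.31 in WT and from 12.88 to 13.17 in KO arrays, with no overlap.

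Rpsa ranged from 13.70 to 13.91 in WT and from 13.89 to 14.19 in KO arrays. Within each of the 4 pairs of groups its KO arrays lay above the WT arrays, by 0.18, 0.27, 0.23 and 0.24 on average. It was the only member higher without overlap in all 4 (background 2.54%), and Rpl6, Rpl7 and Rps4x were lower without overlap in all 4 (background 1.85%). These counts are 1 and 3 of 48. Rpl6 and Rpsa hold the GABP letters in their windows, Rps4x does not, and Rpl7 has no promoter entry.

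**Figure D4:**
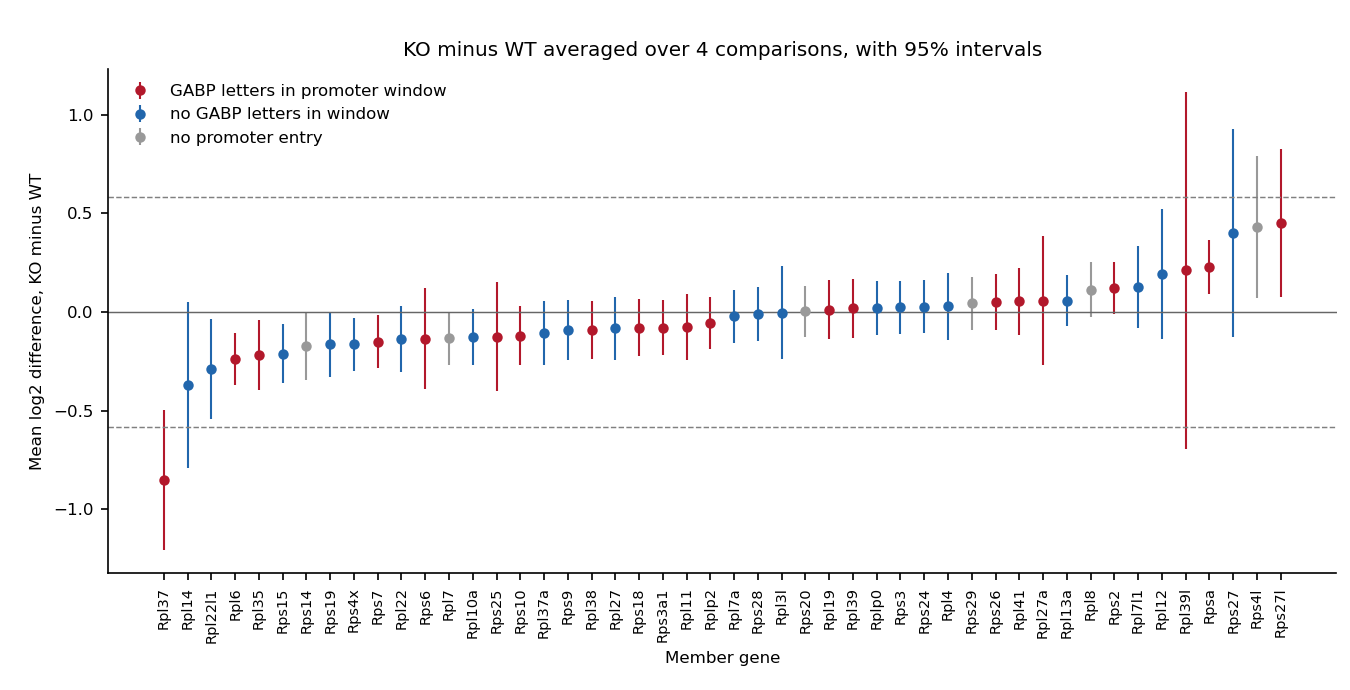
Mean of the 4 differences of KO minus WT for each of the 48 members (log2), with the 95% interval from limma and dashed lines at a 1.5-fold difference. Rpl37 alone has its mean beyond the line on the lower side (-0.85), and 42 members have their whole interval between the lines.

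The members were also split by the GABP letters. The 21 members with the letters had medians of -0.07, -0.02, -0.04 and -0.01 in CD4 0 h, CD4 18 h, CD8 0 h and CD8 18 h, and the 21 without had -0.09, -0.03, -0.04 and -0.09. In the mean of the 4 differences the medians were -0.08 and -0.02. Rps27l and Rps7 hold the letters too, and their differences in CD4 cells at 18 h, 0.31 and -0.33, had opposite signs and were not called.

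No member passed the test for a different response to stimulation in KO and WT cells. The response difference gave 0 calls in CD4 cells (background 0.524% higher and 0.888% lower) and 0 in CD8 cells (0.0403% and 0.226%), where limma's unadjusted p was under 0.05 for 2 and 0 members. The largest in CD4 cells were Rpl12 (1.18), Rps27 (0.68) and Rps6 (0.35) upward, and Rpl14 (-0.48), Rps4l (-0.46) and Rps15 (-0.44) downward. In CD8 cells they were Rps27 (0.75), Rpl12 (0.53) and Rpl39l (0.42) upward, and Rpl14 (-0.26), Rpl4 (-0.23) and Rpl6 (-0.23) downward. The genotype difference gave 0 calls between lineages at 0 h, where no gene of 12393 was called in either direction (0%), and 0 at 18 h (0.0242% and 0.0161%), with 0 members under an unadjusted p of 0.05.

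Among the related genes the mitochondrial ribosomal proteins formed the longest list, with 74 genes. In CD4 cells at 18 h 8 of 74 were called lower (background 4.14%) and 0 higher (2.72%), with Mrpl27 lower by 2.81 and Mrps34 by 1.84. At CD4 0 h 1 was called higher (0.533%) and 1 lower (0.742%). At CD8 0 h 2 were called higher (1.13%) and 0 lower (0.5%), and at CD8 18 h 0 higher (1.59%) and 2 lower (1.16%). Mrpl16 read 8.12 and 8.06 in WT and 6.97 and 6.75 in KO arrays at CD4 0 h, 9.34 and 9.13 against 7.92 and 7.94 at CD4 18 h, 8.04 and 8.20 against 7.05 and 7.52 at CD8 0 h, and 8.93 and 9.29 against 7.51 and 7.85 at CD8 18 h. In the mean of the 4 differences Mrpl16 was lower by -1.20 (limma adjusted p = 7.09e-06) and Mrps35 by -0.94 (limma adjusted p = 8.87e-05). Of the assembly factors, 3 of 33 small subunit and 3 of 42 large subunit genes were called lower in CD4 18 h, led by Utp6 (-1.22) and Rpf2 (-1.19), and Nop53 was called higher (0.59). Cdkn1a, a p53 target, was higher in KO cells at 18 h by 1.96 in CD4 and 2.01 in CD8 cells, and Rps27l, which shares that regulator, had 0.31 and 0.55 there without passing the test.

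The third question was how the lineages differed. Between CD8 and CD4 cells 0 members were called in WT cells at 0 h (background 0.646% higher and 0.637% lower), 0 in WT cells at 18 h (2.32% and 0.96%) and 0 in KO cells at 0 h (1.59% and 0.718%), with 0, 2 and 0 members under an unadjusted p of 0.05 from limma. In KO cells at 18 h 0 were called higher (9.12%) and 1 lower (4.54%). Rpl7l1 was the member called, at -0.65 ± 0.19 (SE, limma adjusted p = 0.0377), a call that was lost without any of 11 of the 16 arrays and under treat. The calls over all genes in this comparison, 1693, became 782 when CD4 KO 18 h replicate 2 was left out and 2855 when CD8 KO 18 h replicate 1 was. In WT cells at 18 h Rpl7l1 differed by -0.74 ± 0.19 (limma adjusted p = 0.056), and at 0 h by -0.14 in WT and -0.01 in KO cells. With the replicate block it was called lower in WT cells at 18 h too (limma adjusted p = 0.0303), and Rpl37 (0.91, limma adjusted p = 0.0217) and Rps27 (0.66, limma adjusted p = 0.0423) were called higher in KO cells at 18 h. Without the 3 arrays of largest 3′ to 5′ difference Rpl7l1 was called lower in WT (limma adjusted p = 0.0122) and KO cells at 18 h (-1.005, limma adjusted p = 0.0045), and Rps25 was called lower in KO cells (-1.02, limma adjusted p = 0.0157). Rps15 was higher in CD8 than in CD4 KO cells at 18 h by 0.51 (limma adjusted p = 0.0261), under the fold minimum. At 0 h the largest differences were Rpl39l (-0.59), Rpl37 (-0.42) and Rps27 (-0.32) downward and Rpl27a (0.29) and Rpl3l (0.23) upward in WT cells, and Rps4l (-0.23) and Rpl27a (-0.22) downward and Rps27l (0.39) and Rpl12 (0.30) upward in KO cells, none of them called.

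Different probe sets of a member did not always give the same change. Of the 48 members 23 had several. Rps24 had 4 bright probe sets, whose stimulation changes lay between -0.46 and 0.05, while a dimmer one with a mean of 7.81 rose by 1.14, 1.70, 1.26 and 1.25 in CD4 WT, CD4 KO, CD8 WT and CD8 KO cells. A dim probe set of Rps9 with a mean of 7.53 rose by 0.73 and 1.10 in CD4 WT and CD4 KO cells, where its brightest changed by -0.03 and 0.06. Which transcript forms these probe sets detect was not established here. With the brightest plain probe set of each gene in place of the brightest of any kind, the calls higher became 4 in CD4 WT and 5 in CD4 KO cells.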

How the data were processed

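Total RNA of each sample went through 2 rounds of amplification, and biotin-labelled cRNA was hybridized to Affymetrix mouse M430 2.0 arrays. The deposited table holds log2 values per probe set, which the authors computed with affy in R (version and summary method not given in the sources used here). Array signal has no read depth, and the number of arrays limits the precision. All 16 columns were matched to samples by title, and the values were used as deposited. Arrays scaled to a common distribution cannot show a change of total mRNA per cell.

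Of 22690 probe sets, 64 were controls, and of the rest 20380 named 1 gene, 691 several and 1555 none. Each of 12393 genes was represented by the probe set naming it alone with the highest mean over 16 arrays. Symbols came from the platform table, and 12369 genes matched RefSeq. A mean per group was estimated by limma 3.58.1 (R 4.3.3) from all 16 arrays (8 residual degrees of freedom, 4.32 added by the prior), tested two-sided, in 16 contrasts and 4 added after the values were seen. A gene was called at an adjusted p under 0.05 and a fold over 1.5. The study's methods give the same thresholds but compute p relative to the fold, as limma's treat does, which is stricter and was run as an alternative. On simulated data for KO minus WT in CD4 18 h over 12393 genes, 44% of 100 genes changed by 0.8 and 86% of 100 changed by 1.5 were recovered, and 9 unchanged genes were called. The simulated noise was independent between arrays, without the replicate differences that the real arrays share, so these rates need not hold for the real arrays.

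The labels number the replicates 1 and 2, and part of each sort went to each time. The difference of replicate 2 and 1 correlated across genes, which are not independent replicates, at 0.18 to 0.56 for all 12 pairs of groups of the same lineage and at -0.60 to -0.12 for the 16 pairs across lineages, so the numbers were taken to pair arrays within a lineage. Named were the called members, the 3 largest changes in a direction with fewer calls, the paralogs with their parents, and a few fixed members, and of related lists up to 2 called genes per direction. The other alternatives were another probe set rule, centring, quantile normalization, array weights, limma's treat, no fold minimum, a filter on dim genes, fits on the compared arrays only and leaving out arrays. The members and lists were chosen with earlier results of these data known. A comparison of protein sequences was planned and not run, since no protein table was used here.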

Additional observations from a re-analysis of the deposited data

Results flagged for a closer look

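Among the genes related to the members, 3 response differences between genotypes passed the test of the difference itself. Cdkn1a, which encodes a cell cycle inhibitor controlled by p53, rose more in KO than in WT cells, by 1.71 ± 0.37 in CD4 (SE, limma adjusted p = 0.0456) and by 2.08 ± 0.37 in CD8 cells (limma adjusted p = 0.0444). Mrpl27, a protein of the mitochondrial large subunit, rose less in KO than in WT CD4 cells, by -2.20 ± 0.44 (limma adjusted p = 0.0317). The groups held 2 arrays each, too few for a test of single outlying arrays.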

How the results depend on the processing

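No difference called for a member turned its sign under any setting. Numbers below count called members. With the replicate number as a block within each lineage, the calls became 2 lower for KO minus WT in CD4 18 h, 1 higher in CD8 18 h, 4 and 2 lower for stimulation of CD4 WT and CD8 WT, and 1 lower (WT 18 h) and 2 higher (KO 18 h) for CD8 minus CD4; this block removed no call. Over all genes it raised the calls in these 6 comparisons from 850, 341, 3249, 1884, 407 and 1693 to 1216, 796, 3629, 2365, 702 and 2226, and treat left 159, 31, 1319, 371, 64 and 389. A single block over both lineages, which does not match the negative correlations across lineages, left 0 lower for KO minus WT in CD4 18 h and 1 lower for CD4 WT stimulation. Without the 3 arrays of largest 3′ to 5′ difference there was 1 higher for KO minus WT in CD4 18 h, 1 lower for CD4 WT and 1 higher for CD8 KO stimulation, 1 and 2 lower for CD8 minus CD4 in WT and KO 18 h, and 1 lower for mean stimulation. Array weights gave 1 higher for CD8 KO stimulation, and 1 and 0 lower for CD8 minus CD4 in WT and KO 18 h. limma's treat, which tests against the fold of 1.5 itself, left 1 higher each for CD4 WT and CD4 KO and 0 for CD8 WT and CD8 KO stimulation, and 0 lower in KO minus WT CD4 18 h, in each stimulation, in CD8 minus CD4 KO 18 h and in both means. With no fold minimum there were 2 lower for KO minus WT in CD4 18 h, 1 higher for CD8 minus CD4 in KO 18 h, 1 higher and 2 lower for mean KO minus WT, and 7 higher and 8 lower for mean stimulation.

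Centring each array on its median left 0 lower for KO minus WT in CD4 18 h and for CD8 minus CD4 in KO 18 h, and 1 lower each for CD4 WT, CD4 KO and mean stimulation. Quantile normalization gave 2 lower for KO minus WT in CD4 18 h and 1 higher for CD8 minus CD4 in KO 18 h. The mean of all probe sets gave 2 lower for KO minus WT in CD4 18 h and 1 lower for CD4 WT stimulation. The brightest plain probe set gave 4 higher and 1 lower for CD4 WT and 5 higher for CD4 KO stimulation, and 3 lower for CD8 minus CD4 in KO 18 h. The filter on dim genes gave 1 lower for CD8 minus CD4 in WT 18 h. With the arrays of the compared groups alone there was 1 higher for KO minus WT in CD4 18 h, 0 higher for CD8 KO stimulation and 0 lower for CD8 minus CD4 in KO 18 h. The cause was not tested in any of these.

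Leaving out 1 array at a time, the counts ranged from 0 to 1 (KO minus WT, CD4 18 h lower and CD8 18 h higher), 1 to 3 higher and 0 to 4 lower (CD4 WT stimulation), 1 to 3 higher and 1 to 3 lower (CD4 KO), 0 to 2 higher and 0 to 1 lower (CD8 WT), 0 to 2 higher (CD8 KO), 0 to 1 lower (CD8 minus CD4, WT 18 h), 0 to 2 higher and 0 to 2 lower (KO 18 h), 0 to 1 lower (CD8 response minus CD4 response, KO), 0 to 1 higher (mean KO minus WT) and 1 to 4 lower (mean stimulation).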
